A study of Mus musculus with 12 samples.

Results

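The p53 target genes described here are 40 genes chosen by symbol from the 32051 genes of the deposited expression table. They comprise Trp53, which encodes p53, and genes that p53 is known to activate or that regulate it. Cdkn1a, Ak1, Zfp385a and Pierce1 were selected on their rise with fatostatin in these same libraries, so their values are given as a description, and the other 36 genes were added to ask whether more p53 targets rise with either compound. These 36 genes were also chosen with earlier results of these data known, so their counts are no independent check. Of the 40 genes, 39 had a mean of at least 0.1 FPKM (fragments scaled by exon length and library size) over the 12 libraries and were tested. The exception was Gdf15, a stress-induced cytokine, which held between 0 and 6 reads per library.

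The starting cells were splenic naive CD4+ T cells of the mouse strain C57BL/6J, which were driven toward Th9 cells, the IL-9-producing helper T cells. All 4 groups received plate-bound anti-CD3, soluble anti-CD28, IL-4, TGF-β, anti-IL-12 and anti-IFN-γ, and RNA was taken on day 4. The groups were DMSO vehicle, EpA (a fungal cyclic lipopeptide), DMSO with fatostatin (an inhibitor of the lipid-gene activators SREBP, written fato below) and EpA with fatostatin (EpA+fato), with 3 libraries each. Compound doses are given in the study's text and not in the labels. The labels also do not say whether replicates were separate mice or cultures. The p-values therefore measure only the spread between these libraries, which may be technical.

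p53 is a transcription factor that is kept at low levels by Mdm2 and is stabilized when DNA or other cellular functions are damaged. It binds a response element made of a pair of decamers and switches on genes that stop the cell cycle, promote or restrain cell death and assist DNA repair. In T cells it is known to restrain proliferation, and several of its targets are shared with other stress pathways.

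Letters of this response element were looked for in the promoters that RefSeq gives on GRCm38.p6, from 250 bases before to 50 bases after each start. A match needed both decamers without a spacer, with at most 2 mismatches and none in the core letters. The consensus is its own reverse complement, so 1 strand covers both. Promoters were present for 32 of the 40 genes, and 3 of the 32 (9.38%) held such letters, compared with 0.189% of the 27025 genes in the promoter table. An exact single decamer was present in 13 of the 32 (40.6%) and in 9.55% of all genes. The 3 matches are shown because their genes, Cdkn1a, Rps27l and Gtse1, are described below, with the matching 20 bases in capitals and 1 mismatch in each. They lie at chr17:29090868-29090972 upstream of every annotated Cdkn1a transcript and 28 bases before the next annotated start, at chr9:66946236-66946340 in an intron of Rps27l and 39 bases before the next annotated start, and at chr15:85859940-85859969 in the first exon of a Gtse1 transcript, all on the plus strand.
Cdkn1a: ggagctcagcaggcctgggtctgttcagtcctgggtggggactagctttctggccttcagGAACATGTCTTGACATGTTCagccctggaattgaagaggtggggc
Rps27l: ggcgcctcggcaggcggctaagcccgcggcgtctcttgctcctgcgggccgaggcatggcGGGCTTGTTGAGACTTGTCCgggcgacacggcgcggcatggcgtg
Gtse1: accggGAGCAAGTTGGGGCTTGCCTctgac
The letters describe these windows and do not show that p53 was bound there. Because the 40 genes were chosen as known p53 targets or regulators, nothing is read from their higher share. More distant elements were not searched.

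The libraries held between 36019739 and 43656682 reads on genes, as recovered from the FPKM values, so depth differed by at most 1.21 times. The 39 tested genes had a median of 1560 reads per library. The summed level of 6 CD4 T cell markers was 382 to 455 FPKM, with Cd4 at 78.1 to 92.2 FPKM. The sum was 443 to 450 FPKM in DMSO, 384 to 392 in EpA, 443 to 455 in fato and 382 to 386 in EpA+fato. In its lower sums with EpA, Cd3d, Cd3e, Cd3g, Cd28 and Cd5 were lower, while Cd4 itself was higher. Cd4 was at 78.1 to 78.4 FPKM in DMSO, 86.2 to 87.1 in EpA, 82.8 to 85.6 in fato and 89.6 to 92.2 in EpA+fato. Il9 was present in every library, at 51.0 to 57.7 FPKM in DMSO, 60.7 to 70.8 in fato, 620 to 652 in EpA and 802 to 855 in EpA+fato. Summed markers stayed at or under 0.575 FPKM for myeloid cells, 0.281 for dendritic cells, 0.105 for NK cells and 1.76 for mast cells and basophils, while the B cell sum of 5.19 to 8.62 FPKM was mostly Cd79b, with the defining gene Ms4a1 at or under 0.0731 FPKM. The low myeloid sum was 0.0533 to 0.153 FPKM in DMSO, 0.213 to 0.352 in EpA, 0.216 to 0.340 in fato and 0.378 to 0.575 in EpA+fato. Its genes held at most 18 reads in a library. The level of the CD8 gene Cd8a was lower in every library with EpA than in those without it, at 1.60 to 1.93 FPKM in DMSO, 1.44 to 1.60 in fato, 0.77 to 0.83 in EpA and 0.43 to 0.58 in EpA+fato, while Cd8b1 lay between 6.40 and 8.61 FPKM with overlapping groups. The part of these cell mixtures in the results below was not tested, and fewer cells of a type cannot be told apart from less RNA per cell.

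To determine how widely p53 targets responded to each compound, all 12 libraries were fitted together with limma on log2(FPKM + 0.1), and p-values were adjusted by Benjamini-Hochberg over 13733 genes. A gene "passed" when its adjusted p was under 0.05, and fold changes below are on this log2 scale. The 4 genes chosen for their rise with fatostatin are left out of the counts, since nothing can be read from them there. With fato against DMSO, 26 of the other 35 genes passed as higher and 0 as lower, where 7.69% and 6.31% of all genes passed in these directions. At least 1.5-fold higher were 17 of them, against 1.35% of all genes (0.502% lower). Their median change was 0.55, whereas the median over all genes was 0.01. One of the 26, Eda2r, had means of 0.0796 FPKM in DMSO and 0.0944 in EpA and reached the minimum of 0.1 FPKM only through its fatostatin libraries, so it had to differ. Without it 25 of 34 passed as higher, 16 of them by at least 1.5-fold.

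Fatostatin was also compared in the presence of EpA, with libraries that shared none with the previous comparison. Here 26 of the 35 genes passed as higher and 0 as lower (25 and 0 of 34 without Eda2r), against 9.22% and 6.79% of all genes. Over all genes this split depended on scaling (1266 higher and 933 lower as fitted, 1090 and 1252 with median of ratios scaling), while for the 35 genes it was 26 and 0 under both. At least 1.5-fold higher were 15 genes (14 without Eda2r) and 0 were lower, against 1.51% and 0.481% of all genes. The median change was 0.52 and that of all genes 0.01. With fatostatin both without and with EpA, 25 of the 35 passed as higher and 0 as lower (24 of 34 without Eda2r), where 5.34% and 3.96% of all genes did so. Over these 35 genes, Eda2r included, the changes correlated with r = 0.95. Over all 13733 genes, which reach down to a mean of 0.1 FPKM, r was 0.35.

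With EpA against DMSO, 17 of 35 genes passed as higher and 2 as lower, against 14.3% and 13.1% of all genes, with a median change of 0.19 against 0.00 for all genes. Plk2 and Phlda3 were at least 1.5-fold higher and no gene was 1.5-fold lower (1.44% and 1.94% of all genes). With EpA+fato against fato, which shares no library with that comparison, 17 passed as higher and 2 as lower against 16.2% and 13.3% of all genes, with a median change of 0.16 against 0.01. At least 1.5-fold higher were 2 genes and 0 were lower, against 1.89% and 1.86%. In both comparisons 16 passed as higher and 2 as lower, where 10.8% and 9.31% of all genes did so. The changes correlated with r = 0.90 over the 35 genes, Eda2r included (0.48 over all genes, which reach down to a mean of 0.1 FPKM). The map of fold changes shows these 4 comparisons gene by gene.

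**Figure D1:**
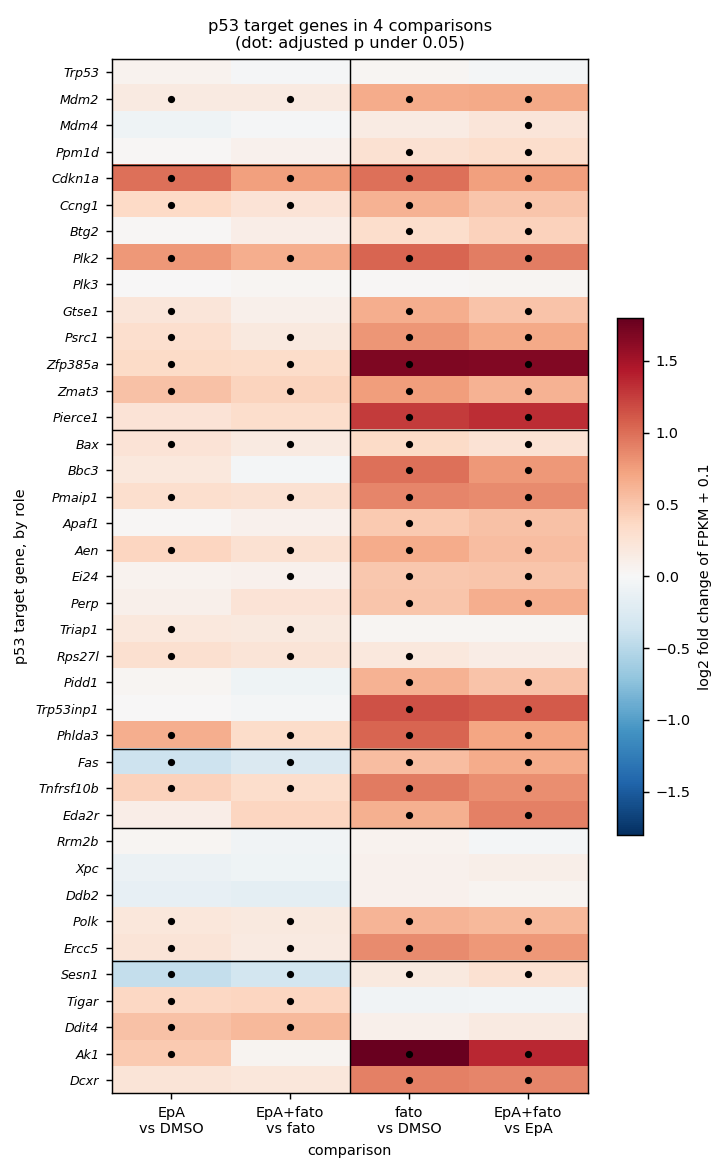
Log2 fold change of FPKM + 0.1 (colour) for the 39 tested p53 target genes (rows, grouped by role) in 4 comparisons (columns), with a dot where the adjusted p was under 0.05. Both fatostatin columns hold 30 dots, all on higher genes, including Eda2r and the 4 genes chosen for their rise with fatostatin. The EpA columns hold 22 and 21 dots that include the lower genes Fas and Sesn1. Without the 4 chosen genes each fatostatin column holds 26 dots, and 25 without Eda2r as well (7.69% and 9.22% of all genes passed as higher). Each EpA column then holds 17 higher and 2 lower genes (14.3% and 13.1%, then 16.2% and 13.3% of all genes).

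A direct comparison of fato with EpA was added after the data were seen, to test whether the compounds differed. Among the 35 genes, the level was higher in fato than in EpA for 26 and lower for 3, against 17.7% of all genes in each direction (25 and 3 of 34 without Eda2r). The 3 lower genes were Triap1, Tigar and Ddit4. The genes that did not pass were Trp53, Plk3, Bax, Rps27l, Rrm2b and Xpc.

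Trp53 itself did not pass in any comparison. Its level (chr11:69580359-69591873, GRCm38) was 52.8, 51.3 and 54.3 FPKM in DMSO, 55.5, 55.0 and 54.8 in EpA, 52.8, 53.9 and 56.2 in fato and 52.6, 53 and 55.4 in EpA+fato. The DMSO, fato and EpA+fato libraries overlapped, and those of EpA lay just above DMSO. Its change was 0.06 with EpA (95% interval 0.00 to 0.12, adjusted p = 0.148) and 0.04 with fato (-0.02 to 0.10, adjusted p = 0.438). These are RNA levels, and p53 protein was not measured in these files. The related genes Trp63 and Trp73 were under 0.1 FPKM on average and were not tested.

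Among the regulators of p53, Mdm2, the ubiquitin ligase that degrades p53 and is itself a target, rose with both compounds. Mdm2 (chr10:117688875-117710758) stood at 14.0, 13.5 and 13.6 FPKM in DMSO, 14.7, 15.6 and 15.5 in EpA, 22.2, 21.6 and 21.8 in fato and 24.5, 24.3 and 24.7 in EpA+fato. The 4 groups did not overlap. The change was 0.67 ± 0.026 (SE) with fato (adjusted p = 2.67e-08) and 0.16 ± 0.026 with EpA (adjusted p = 0.00103), and fato exceeded EpA by 0.51 (adjusted p = 6.78e-08). Ppm1d, the phosphatase that turns p53 off again, rose by 0.27 with fato (adjusted p = 0.000575) and by 0.32 with fatostatin in the presence of EpA (adjusted p = 0.00017). Mdm4, a partner of Mdm2 that binds p53, rose by 0.21 in the latter comparison (adjusted p = 0.0144, and 0.0599 without EpA replicate 3), with 0.15 in fato against DMSO (adjusted p = 0.0756).

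Cdkn1a encodes p21, the inhibitor of cyclin-dependent kinases through which p53 stops the cell cycle. Cdkn1a (ENSMUSG00000023067, chr17:29090976-29100727) was at 26.0, 26.3 and 26.3 FPKM in DMSO, 52.3, 52.4 and 52.0 in EpA, 50.9, 52.5 and 53.3 in fato and 85.0, 87.3 and 89.5 in EpA+fato. The EpA and fato libraries overlapped, all 6 lay above DMSO, and the 3 EpA+fato libraries lay above all of these. The mean was 2.0 times that of DMSO in EpA, 2.0 times in fato and 3.33 times in EpA+fato. Because Cdkn1a was chosen for its rise with fatostatin in these libraries, its changes are given as values without a test. On the log2 scale they were 0.99 ± 0.022 with EpA against DMSO, 0.74 ± 0.022 with EpA+fato against fato and 0.74 with EpA+fato against EpA, and fato and EpA differed by 0.00.

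Whether the effect of EpA differed with and without fatostatin was tested as the difference of the log2 changes. Among the 39 genes 0 passed as higher and 1, Cdkn1a, as lower, where 0.0364% and 0.00728% of all genes passed (5 genes and 1 gene). Cdkn1a had been chosen for its rise with fatostatin in the libraries that this difference contains, so its value of -0.25 ± 0.031 on the log2 scale is a description and nothing is read from that count. The direction also depended on the scale, since mean FPKM rose by 26.0 with EpA alone and by 35.03 with EpA on top of fatostatin. For Phlda3 the difference was -0.33 (95% interval -0.52 to -0.14, adjusted p = 0.365). Among the other 35 genes 0 passed with limma and with voom on the recovered reads, and 5 had an unadjusted p under 0.05 in limma's test, as 7.89% of all genes did.

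**Figure D2:**
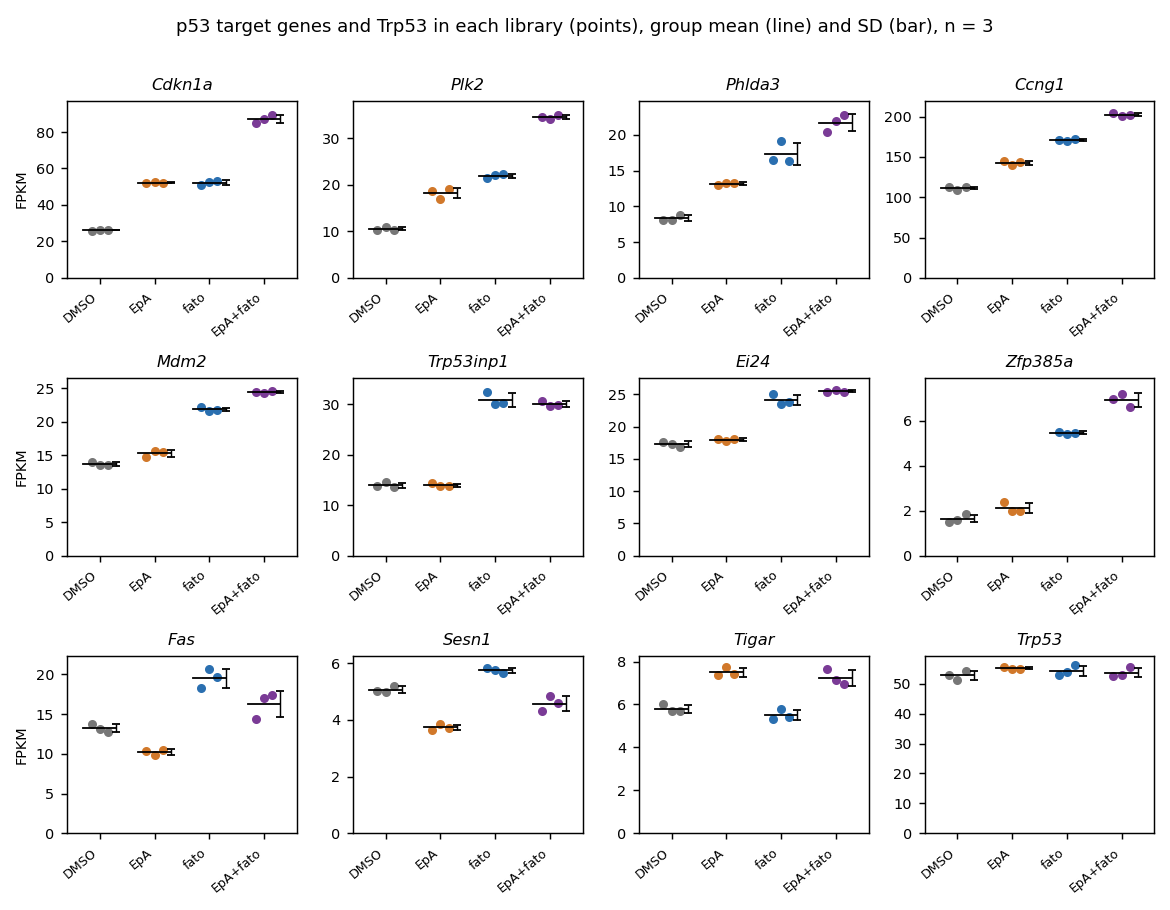
FPKM (vertical axes, from 0) of 12 genes in each of the 12 libraries, with the group mean as a line and the SD as a bar (n = 3). Cdkn1a, Plk2, Phlda3 and Ccng1 are lowest in DMSO and highest in EpA+fato, Trp53inp1 and Ei24 differ by fatostatin, Tigar differs by EpA, and Trp53 lies between 51.3 and 56.2 FPKM throughout.

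Of 10 genes that slow the cell cycle or act in it, 7 were not chosen for a rise with fatostatin. Among these 7, 6 passed as higher with fato (7.69% of all genes), 6 with fatostatin on top of EpA (9.22%), 5 with EpA (14.3%) and 4 with EpA on top of fatostatin (16.2%), and 0 passed as lower. Plk2, a kinase of the stress response and centriole cycle (chr13:110395046-110400844), had 10.4, 11.0 and 10.3 FPKM in DMSO and 18.6, 17.0 and 19.2 in EpA. It had 21.4, 22.1 and 22.3 FPKM in fato and 34.5, 34.2 and 35.1 in EpA+fato. No group overlapped another. The change was 0.78 ± 0.041 with EpA (adjusted p = 2e-07) and 1.04 ± 0.041 with fato (adjusted p = 2.67e-08), and fato exceeded EpA by 0.26 (adjusted p = 0.000395).

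Ccng1 (cyclin G1, a feedback regulator of the Mdm2 loop, chr11:40748552-40755311) was exceeded in DMSO by Rps27l and Ddit4 alone among the 40 genes. It held 113, 109 and 112 FPKM in DMSO, 145, 140.4 and 144 in EpA, 172, 169.7 and 173 in fato and 205, 201 and 202 in EpA+fato. These groups were fully separated. Its change was 0.36 with EpA (adjusted p = 1.42e-07) and 0.62 with fato (adjusted p = 2.57e-09). Zmat3, an RNA-binding protein of splicing, was at a mean of 6.23 FPKM in DMSO, 9.07 in EpA, 10.6 in fato and 14.0 in EpA+fato, with changes of 0.53 with EpA (adjusted p = 3.34e-06) and 0.76 with fato (adjusted p = 2.88e-07).

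Gtse1 and Psrc1, both microtubule-associated and otherwise known from dividing cells, rose more with fatostatin. Gtse1 (chr15:85859745-85876573) had 42.4, 40.8 and 43.2 FPKM in DMSO, 50.1, 46.9 and 49.8 in EpA, 63.7, 67.5 and 67.1 in fato and 68.2, 72.2 and 70.1 in EpA+fato. All 4 groups were apart. The change was 0.65 with fato (adjusted p = 2.82e-07) and 0.22 with EpA (adjusted p = 0.000743), and 0.09 with EpA on top of fatostatin (adjusted p = 0.0803). Psrc1 rose by 0.80 with fato (adjusted p = 1.02e-07) and 0.30 with EpA (adjusted p = 0.000151). Btg2, an antiproliferative gene, rose with fato (0.32, adjusted p = 0.000514) and had 0.02 with EpA (adjusted p = 0.731). The kinase Plk3 had changes between 0.01 and 0.04 in the 4 comparisons and passed in none.

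Zfp385a and Pierce1 were among the 4 genes chosen for their rise with fatostatin, so their changes are given as values without a test. Zfp385a, a zinc finger protein that directs p53 toward arrest genes (chr15:103313895-103340093), was at 1.51, 1.60 and 1.84 FPKM in DMSO and 5.52, 5.40 and 5.47 in fato. It was at 2.37, 2.01 and 1.96 FPKM in EpA and 6.97, 7.20 and 6.61 in EpA+fato. From EpA to EpA+fato its log2 change was 1.67 ± 0.081. Pierce1 (chr2:28462001-28466332), a gene of motile cilia also known as a p53 target, had 0.86, 0.75 and 1.17 FPKM in EpA and 2.46, 2.39 and 2.50 in EpA+fato, a log2 change of 1.33 ± 0.14. Its counts were low, from 23 to 101 reads per library. EpA against DMSO gave 0.34 for Zfp385a and 0.25 for Pierce1.

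Of the 12 genes of mitochondrial cell death and its restraint, 11 passed as higher with fato (7.69% of all genes), 10 with fatostatin on top of EpA (9.22%), 6 with EpA (14.3%) and 7 with EpA on top of fatostatin (16.2%), and 0 as lower. Trp53inp1, which promotes autophagy and death downstream of p53 (chr4:11156431-11174379), separated the compounds. It was at 13.8, 14.5 and 13.6 FPKM in DMSO and 14.3, 13.8 and 13.8 in EpA. It was at 32.5, 29.96 and 30.2 FPKM in fato and 30.7, 29.7 and 29.7 in EpA+fato. The EpA libraries overlapped those of DMSO, and both fatostatin groups lay above them. The change was 1.14 ± 0.036 with fato (adjusted p = 5.18e-09) and 0.00 with EpA (95% interval -0.08 to 0.08, adjusted p = 0.985), and fato exceeded EpA by 1.14 (adjusted p = 2.09e-09).

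Bbc3 (Puma), Pmaip1 (Noxa) and Bax encode the proteins that permeabilize mitochondria or trigger it. Bbc3 (chr7:16308393-16318205) was at 2.82, 2.33 and 2.61 FPKM in DMSO, 3.05, 3.57 and 2.37 in EpA, 5.17, 5.53 and 5.04 in fato and 4.81, 5.45 and 5.17 in EpA+fato. The libraries without fatostatin overlapped, as did those with it, and the 2 sets were apart. Bbc3 rose by 1.00 ± 0.12 with fato (adjusted p = 0.000214) and by 0.78 with fatostatin on top of EpA (adjusted p = 0.00127). Pmaip1 rose by 0.87 with fato (adjusted p = 5.93e-07) and by 0.30 with EpA (adjusted p = 0.00104), from a mean of 5.50 FPKM in DMSO to 12.3 in EpA+fato. Bax had similar changes with fato (0.34, adjusted p = 0.00146) and EpA (0.24, adjusted p = 0.00623), and the difference between them was 0.10 (95% interval -0.02 to 0.22, adjusted p = 0.196).

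Apaf1 (the apoptosome scaffold), Ei24, Perp and Pidd1 rose with fato by 0.47, 0.48, 0.50 and 0.63 (adjusted p = 6.12e-06, 5.44e-07, 0.00323 and 1.22e-05). None passed with EpA against DMSO, where the changes were 0.01, 0.06, 0.10 and 0.03. With EpA on top of fatostatin they were 0.08, 0.08, 0.25 and -0.08, and Ei24 passed there (adjusted p = 0.0404), a call lost in 12 of 21 alternative settings with an adjusted p up to 0.14. The direct comparison of fato with EpA gave between 0.41 and 0.59 for these 4 genes, and each passed. Aen, a nuclease of apoptosis, rose with both, by 0.67 with fato (adjusted p = 8.02e-06) and 0.39 with EpA (adjusted p = 0.000254).

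Phlda3, which restrains the kinase Akt (chr1:135766119-135769136), was at 8.06, 8.12 and 8.82 FPKM in DMSO and 12.9, 13.3 and 13.3 in EpA. It was at 16.5, 19.1 and 16.3 FPKM in fato and 20.4, 21.9 and 22.7 in EpA+fato. The groups were apart, and the change was 0.65 ± 0.061 with EpA (adjusted p = 1.47e-05) and 1.04 with fato (adjusted p = 5.93e-07). Triap1, an inhibitor of apoptosis, rose with EpA by 0.19 (adjusted p = 0.000787) and had 0.04 with fato (adjusted p = 0.473). Rps27l, a ribosomal protein relative, rose by 0.29 with EpA (adjusted p = 0.000701) and 0.19 with fato (adjusted p = 0.0147, and 0.0591 without fatostatin replicate 3), but it is nearly identical to Rps27, so reads could be split between them.

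Of the death receptors, Fas and Tnfrsf10b passed as higher with fato, while with EpA Tnfrsf10b passed as higher and Fas as lower (7.69% of all genes passed as higher with fato, and 14.3% as higher and 13.1% as lower with EpA). Fas, which triggers apoptosis when bound by its ligand on other T cells (chr19:34290666-34327772), was at 13.8, 13.1 and 12.8 FPKM in DMSO, 10.4, 9.82 and 10.4 in EpA, 18.3, 20.6 and 19.6 in fato and 14.4, 17.0 and 17.4 in EpA+fato. Every EpA library was below DMSO and every fato library above it, with EpA+fato between DMSO and fato. Fas fell by 0.37 ± 0.068 with EpA (adjusted p = 0.00188) and rose by 0.55 ± 0.068 with fato (adjusted p = 0.00021). It fell by 0.26 with EpA on top of fatostatin (adjusted p = 0.0126, and 0.052 without fatostatin replicate 2), and fato exceeded EpA by 0.92 (adjusted p = 1.21e-06). Tnfrsf10b, the mouse TRAIL receptor, rose with both, by 0.93 with fato (adjusted p = 1.89e-06) and 0.42 with EpA (adjusted p = 0.000434), from a mean of 3.42 FPKM in DMSO to 8.28 in EpA+fato. Eda2r, a further receptor of this family, was near the limit of detection with 14 to 68 reads per library. It entered the test only through its fatostatin libraries, so its change of 0.64 with fato is given as a value without a test, and it lay between 0.13 and 1.19 in the alternative settings.

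Of 5 genes of DNA repair and nucleotide supply, the same 2 passed in all 4 comparisons and were higher in each, where 14.3% of all genes passed as higher with EpA, 16.2% with EpA on top of fatostatin, 7.69% with fato and 9.22% with fatostatin on top of EpA. Ercc5 (XPG), an endonuclease of nucleotide excision repair (chr1:44147744-44181260), was at 4.54, 4.74 and 4.88 FPKM in DMSO, 5.65, 5.50 and 5.51 in EpA, 8.78, 8.50 and 8.49 in fato and 9.75, 9.47 and 9.52 in EpA+fato. The 4 groups were apart, with changes of 0.85 ± 0.034 with fato (adjusted p = 3.43e-08) and 0.23 with EpA (adjusted p = 0.000481). Polk, a DNA polymerase that copies past lesions, rose by 0.61 with fato (adjusted p = 1.32e-05) and 0.20 with EpA (adjusted p = 0.0127, and 0.0531 without EpA replicate 3). With EpA on top of fatostatin its adjusted p was 0.0232, and 0.0905 without fatostatin replicate 3. Xpc and Ddb2, which recognize DNA lesions, and Rrm2b, the p53-induced subunit of ribonucleotide reductase, passed in none of the 4 comparisons. Ddb2 shares 23.8% of its exon length with Acp2 on the opposite strand, and the strand setting of the counts is not given in the sources used here.

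Sesn1, an antioxidant protein that restrains mTORC1 (chr10:41809935-41908424), was at 5.01, 4.97 and 5.20 FPKM in DMSO, 3.66, 3.84 and 3.73 in EpA, 5.85, 5.75 and 5.67 in fato and 4.30, 4.83 and 4.58 in EpA+fato. As for Fas, the order was EpA lowest and fato highest, and here EpA+fato lay below DMSO. Sesn1 fell by 0.42 ± 0.046 with EpA (adjusted p = 4.5e-05) and rose by 0.18 with fato (adjusted p = 0.0215). The rise no longer passed without DMSO replicate 1 or 2 or fatostatin replicate 1 or 2 (adjusted p up to 0.0727).

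Tigar, which lowers glycolytic flux (chr6:127085116-127109557), was at 6.01, 5.69 and 5.69 FPKM in DMSO, 7.36, 7.74 and 7.41 in EpA, 5.33, 5.80 and 5.44 in fato and 7.64, 7.13 and 6.94 in EpA+fato. Libraries with EpA lay above those without it, and DMSO and fato overlapped. It rose by 0.37 with EpA (adjusted p = 0.000154) and had -0.07 with fato (95% interval -0.17 to 0.03, adjusted p = 0.393). Ddit4 (REDD1, an inhibitor of mTORC1 that is also induced by hypoxia and amino acid stress) rose by 0.52 with EpA (adjusted p = 2.17e-05), from a mean of 161 to 230.5 FPKM, and had 0.10 with fato (adjusted p = 0.268).

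Ak1, an adenylate kinase that balances adenine nucleotides (chr2:32621758-32635058), was likewise chosen for its rise with fatostatin. It went from 0.55, 0.49 and 0.82 FPKM in DMSO to 2.43, 2.18 and 2.38 in fato, and from 0.83, 0.95 and 0.87 FPKM in EpA to 2.48, 2.76 and 2.08 in EpA+fato. As values without a test, the log2 change was 1.36 ± 0.15 from EpA to EpA+fato and 0.48 from DMSO to EpA. Dcxr, a carbonyl reductase, rose by 0.91 with fato (adjusted p = 6.67e-05), with 0.23 with EpA (adjusted p = 0.0961).

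**Figure D3:**
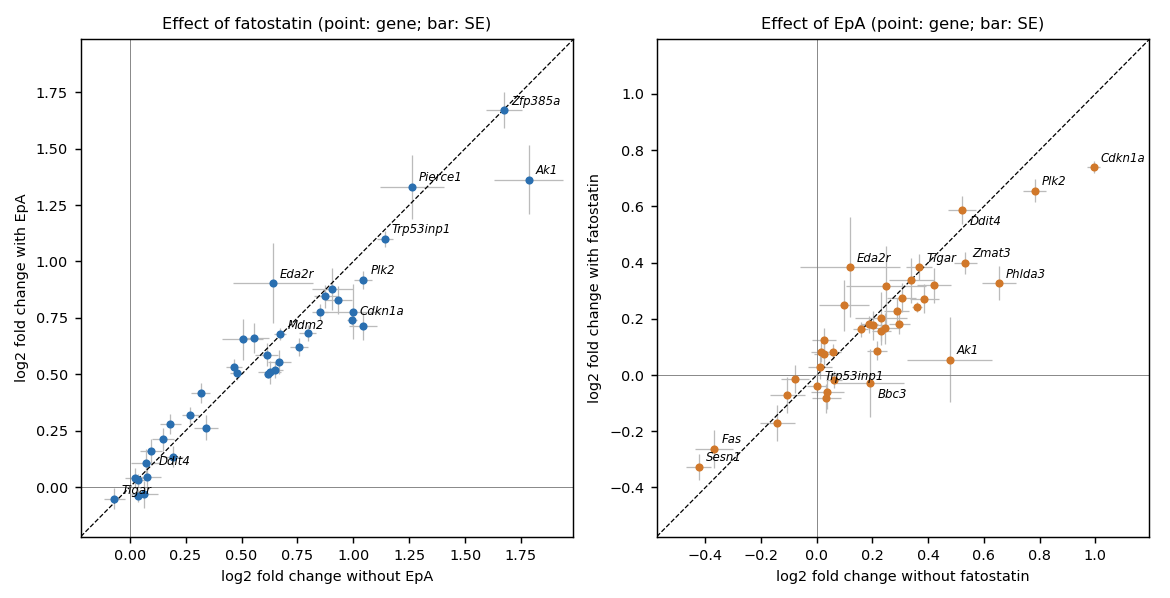
Log2 fold change of 39 p53 target genes (points, bars are SE) for fatostatin without EpA (left, horizontal) and with EpA (left, vertical), and for EpA without fatostatin (right, horizontal) and with fatostatin (right, vertical). The dashed line marks equal changes, and the 2 axes of each panel share no library. In the left panel most genes lie above 0 on both axes, up to 1.78 for Ak1. In the right panel Cdkn1a is highest at 0.99 and 0.74, and Sesn1 and Fas are lowest on both axes. There, 5 genes lie below 0 without fatostatin and 10 with it.

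To place these genes among others of the pathway, lists were written by hand. Of 52 further p53 targets, 48 were tested. With fato 13 passed as higher and 3 as lower, with a median change of 0.08 (7.69% and 6.31% of all genes), and with fatostatin on top of EpA 16 and 4 (9.22% and 6.79%). With EpA 14 passed as higher and 8 as lower (14.3% and 13.1% of all genes), and with EpA on top of fatostatin 16 and 9 (16.2% and 13.3%). Sesn2, the stress-induced relative of Sesn1, rose by 0.98 with fato and 0.42 with EpA. Gls2, the liver-type glutaminase, rose by 0.71 with EpA and had 0.14 with fato, without passing. Steap3, a metal reductase, fell by 0.66 with EpA and rose by 0.56 with fato.

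Genes that are repressed through p53, p21 and the DREAM complex, which silences cell cycle genes, were the 20 genes of a further list. None passed as higher in any of the 4 comparisons. As lower, 7 passed with EpA, 13 with fato, 14 with fatostatin on top of EpA and 13 with EpA on top of fatostatin, where 13.1%, 6.31%, 6.79% and 13.3% of all genes passed as lower. With voom on the recovered reads 11 passed as lower with EpA, and none passed as higher there or with TPM or median of ratios scaling. The changes were small, between -0.36 and 0.10, and none reached 1.5-fold. Examples with fato were the cytokinesis gene Prc1 (-0.33), the mitotic kinase gene Cdk1 (-0.23) and Plk1 (-0.22). Foxm1, a transcription factor of the G2 phase, was lower with fato (-0.19) and with EpA (-0.24).

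**Figure D4:**
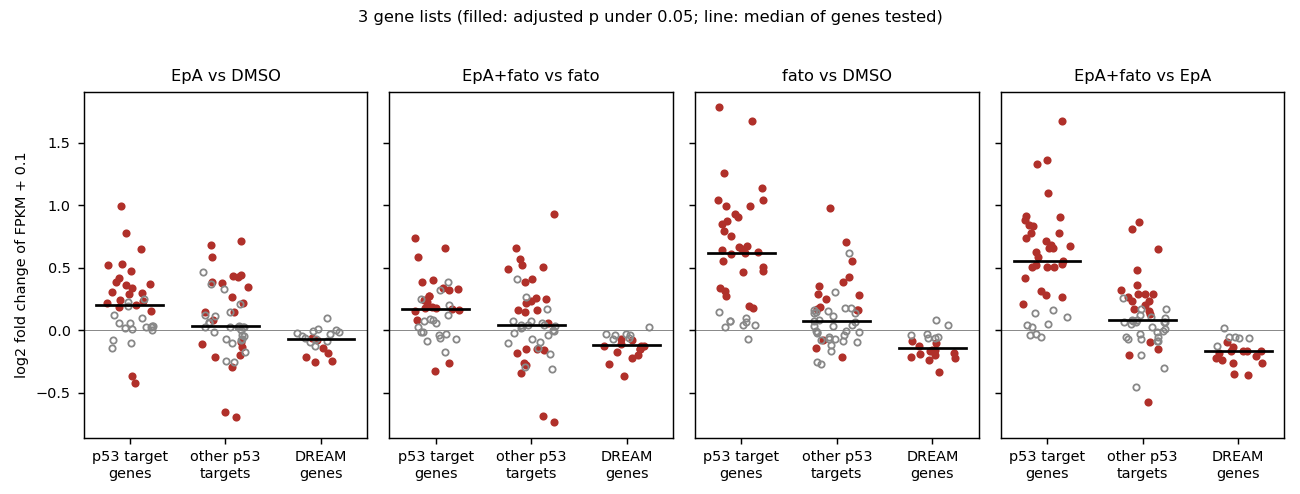
Log2 fold change of FPKM + 0.1 in 4 comparisons (panels) for the 39 tested p53 target genes, 48 other p53 targets and 20 DREAM genes. Each point is a gene, filled where the adjusted p was under 0.05, and the line is the median. The medians of the p53 target genes are 0.20, 0.17, 0.62 and 0.56 from left to right. These include the 4 genes chosen for their rise with fatostatin, and without those the medians are 0.19, 0.16, 0.55 and 0.52. The medians of the other targets are between 0.03 and 0.08, and those of the DREAM genes between -0.07 and -0.17.

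A further list held regulators upstream of p53, such as the kinases Atm, Atr, Chek1 and Chek2. Of 25 tested, 2 passed as higher and 4 as lower with EpA (14.3% and 13.1% of all genes), and 1 each with fato (7.69% and 6.31%). Atm, Atr, Chek1 and Chek2 passed in none of the 4 comparisons. Of 5 tested CDK inhibitors other than Cdkn1a, none passed as higher with fato, where Cdkn1b (-0.21) and Cdkn2d (-0.11) were lower. With EpA Cdkn2d was higher (0.10) and Cdkn2c (-0.64) and Cdkn3 (-0.27) lower.

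Some p53 targets are also induced by the amino acid and endoplasmic reticulum stress factors ATF4 and CHOP, so 17 targets of these were listed as well, of which 16 were tested. With fato 2 passed as higher (Atf3 and Sesn2) and 7 as lower (7.69% and 6.31% of all genes), Atf4 itself changing by -0.34 and Trib3 by -0.61. With EpA 7 passed as higher and 0 as lower (14.3% and 13.1%). SREBP targets, the genes of lipid synthesis that fatostatin is known to reduce, passed as lower with fato in 9 of 15 cases and as higher in 0 (6.31% and 7.69% of all genes), with Scd1 at -0.50. With EpA 6 of the 15 passed as higher and 3 as lower (14.3% and 13.1%).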

How the data were processed

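RNA was sequenced from 12 libraries in 4 groups, with TruSeq libraries from total RNA. Per the study's methods, Trim Galore removed adapters, HISAT2 mapped reads on GRCm38 and featureCounts assigned them to genes, from which the authors made the deposited FPKM values. The annotation release and strand setting are not given in the sources used here. One line was kept per gene where lines were repeated (301 of 32352 lines, with identical values). Reads per gene were recovered from the FPKM values and the exon lengths of GENCODE M21, and 98.2% to 98.4% of values per library came out whole within 0.02 reads.

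The main test was limma 3.58.1 in R 4.3.3, with 1 mean per group over all 12 libraries, an expression trend, log2(FPKM + 0.1), a minimum mean of 0.1 FPKM and Benjamini-Hochberg adjustment over 13733 genes. A pseudocount understates the changes of low genes. Libraries of a group differed by more than sampling noise (chi-square per degree of freedom 3.13 to 7.49), so none was treated as a library deposited again, which does not show that they were separate cultures.

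Members and lists were chosen with earlier results of these data known. Named genes were the 4 genes of the selection, Trp53, Mdm2, Mdm4 and each member with an adjusted p under 0.05, a mean of at least 1 FPKM and a log2 change of at least 0.3 in any of 4 comparisons (32 genes). Other members were named after their values were seen. Alternatives were other pseudocounts, filters, TPM, median of ratios scaling, voom on recovered reads, a replicate block, a fold threshold of 1.2 and leaving out each library.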

Additional observations from a re-analysis of the deposited data

Results flagged for a closer look

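The log2 change of Cdkn1a with EpA was 0.99 without fatostatin and 0.74 with it, a difference of -0.25, and it was marked because this difference passed limma's test of all genes. Cdkn1a was chosen for its rise with fatostatin in these libraries, so the test is no independent evidence. The call was lost in 13 of 20 alternative settings, among them the omission of any 1 library other than fatostatin replicate 1, with an adjusted p up to 0.147. The log2 difference itself lay between -0.273 and -0.236 in the 20 settings. On the FPKM scale the direction was the opposite, with a rise of 26.0 with EpA alone (from 26.2 to 52.2) and 35.03 with EpA on top of fatostatin (from 52.2 to 87.2).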

How the results depend on the processing

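Of 147 gene values, the 4 chosen genes included, 130 kept their direction and their side of the threshold in every alternative tried, and of 3081 alternative values 2981 did so, 89 no longer passed and 11 changed sign. The counts of genes that passed with either compound, over all 39 with the 4 chosen ones, stayed within 1.5 times of their value as fitted, except that EpA on top of fatostatin lowered 1 to 3 genes when 1 library was left out, with 1 (Sesn1) without fatostatin replicate 2. A fold threshold of 1.2 instead of 1.5 admits smaller changes, and was counted over all 39 genes, with Eda2r and the 4 chosen for their rise with fatostatin. With EpA 14 were higher and 2 lower (5.2% and 5.68% of all genes), and with EpA on top of fatostatin 10 and 1 (6.67% and 5.62%). With fato 28 were higher and 0 lower (3.63% and 1.65%), and with fatostatin on top of EpA 29 and 0 (4.61% and 1.57%). In fato against EpA 23 were higher and 2 lower (9.68% and 6.75%). In the test of the difference between the log2 effects of EpA with and without fatostatin, where Cdkn1a had been the 1 gene to pass as lower, 0 genes passed with median of ratios scaling and 0 to 1 when 1 library was left out, and the cause was not tested. Trp53inp1 with EpA was -0.0016 with median of ratios, -0.00067 with voom and -0.018 to 0.029 when 1 library was left out. The difference of fato and EpA for Cdkn1a was 0.0045 with TPM, 0.0015 with voom and -0.015 to 0.018 when 1 library was left out, and Trp53 with EpA on top of fatostatin was -0.039 to 0.0089.

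Same-numbered libraries of different groups did not deviate together (r from -0.047 to 0.074 over 18 pairs, none over 0.1), and 7 of 12 libraries correlated best with their own number. With a replicate block 18 of the 35 genes not chosen for a rise with fatostatin passed as higher with EpA (13.9% of all genes), 26 with fato (7.15%), 26 with fatostatin on top of EpA (8.72%) and 19 with EpA on top of fatostatin (15.7%). In the test of the difference, 0 genes passed with the replicate block. At the lowest depths, 14 to 68 reads for Eda2r and 23 to 101 for Pierce1 limit what can be said of these genes.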
